A study of Homo sapiens with 183 samples.

Results

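The clustered histone genes are the replication-dependent genes for the linker histone H1 and the core histones H2A, H2B, H3 and H4. They were taken as the gene names beginning with HIST1H, HIST2H, HIST3H or HIST4H in all 8 deposited tables, with a level of at least 1 TPM (a transcript abundance scaled to transcript length and library size) in at least 4 libraries. Of 19875 gene names, 71 had such a name and 68 passed the level rule, while HIST1H1A, HIST1H2AA and HIST1H2BA stayed below it. The 68 members comprised 5 H1, 16 H2A, 17 H2B, 15 H3 and 15 H4 genes. On GRCh38.p14, the build of the RefSeq annotation used to place them, the 52 HIST1 genes lay on chromosome 6, the 12 HIST2 and 3 HIST3 genes on chromosome 1, and HIST4H4 on chromosome 12. The pairs HIST2H2AA3 and HIST2H2AA4, HIST2H3A and HIST2H3C, and HIST2H4A and HIST2H4B held identical values in every library, so reads could not be divided between their near-identical copies, and the 68 members gave 65 distinct sets of values. All counts and shares of members below include both rows of each pair.

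The series contained 183 RNA-seq libraries from 9 human cancer cell lines. Pancreatic cancer was represented by CFPAC-1, by AsPC-1 and SUIT-2, which the study treats as classical, and by BxPC-3 and T3M-4, which it treats as basal-like. In these, Cas9-expressing populations were collected on day 5 after infection with an sgRNA against KLF5, a transcription factor of epithelial lineages, RUVBL1 or RUVBL2, the ATPase partners that KLF5 was proposed to use as coactivators, CDK1, the mitotic kinase, Rpa3, a subunit of the single-stranded DNA binding complex of replication, CHD4, a chromatin remodeler, or SERPINB5, a serpin. An sgRNA labelled sgRosa served as the control in every knockout experiment, and all knockouts were mixed populations and not clones. The study used more than 1 sgRNA for KLF5, RUVBL1, RUVBL2 and the sgRosa control, and the labels do not say which library carried which, so the spread and the SE of a knockout group can include differences between sgRNAs. AsPC-1 was studied in 4 knockout experiments with their own sgRosa libraries (experiment 1 for KLF5, experiment 2 for RUVBL1 and SERPINB5, experiment 3 for KLF5, RUVBL1, RUVBL2, CDK1 and Rpa3, and 1 for CHD4), and T3M-4 and BxPC-3 in 2 each. AsPC-1 and T3M-4 were also infected with lentivirus that was empty (Lv-Empty) or carried RUVBL1_A62T or RUVBL2_dF109, mutants that the study used as resistant to the RUVBL1/2 ATPase inhibitor CB-6644, and were selected with G418 as pools before 24 h in CB-6644 or DMSO. The parental lines T84 (colorectal cancer), A375 (melanoma), H1048 (small cell lung cancer of the tuft cell-like P subtype) and RH30 (alveolar rhabdomyosarcoma) received CB-6644 or DMSO for 24 h. The labels do not say whether replicates came from separate cultures, so the p-values below measure the spread between these libraries only.

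Replication-dependent histone genes are transcribed mainly in S phase, when new DNA must be packed into nucleosomes. Most of their mRNA does not end in a poly-A tail but in a short 3′ stem-loop, which is bound by the stem-loop binding protein SLBP and cut just downstream with the help of the U7 small nuclear RNP. Some of these genes also produce longer polyadenylated transcripts, for instance in cells that leave the cycle or when 3′ end cutting fails. The libraries here were made from poly-A selected RNA, so every level below is a level in polyadenylated RNA and not the total histone mRNA of the cells.

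The stem-loop is shown first because it separates these genes from nearly all others. A core of this form was found 3′ of the stop codon in 68 of 68 members, and within the last 100 bases of a GENCODE 44 protein-coding transcript in 67 of 68 members (98.5%) against 6 of 19608 other genes (0.0306%). The cores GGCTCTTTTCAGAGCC (39 members), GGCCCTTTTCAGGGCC (10), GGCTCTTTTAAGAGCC (9) and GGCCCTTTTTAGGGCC (4) covered 62 members. The windows below, for 10 of the genes on which the results turn, are given 5′ to 3′ on the strand of the gene with the stem-loop core in capitals, and the coordinates are those of the core on GRCh38.
HIST1H1C, chr6:26055744-26055759, minus strand: cccaaaaGGCTCTTTTCAGAGCCaccactg
HIST1H2AC, chr6:26124669-26124684, plus strand: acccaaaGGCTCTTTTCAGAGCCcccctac
HIST1H2BD, chr6:26158587-26158602, plus strand: tcccaaaGGCTCTTTTAAGAGCCacgcatg
HIST1H2BK, chr6:27146366-27146381, minus strand: ccccaaaGGCTCTTTTAAGAGCCacttaaa
HIST2H2AA3, chr1:149842223-149842238, minus strand: ctcaaaaGGCTCTTTTCAGAGCCacccacg
HIST2H2AC, chr1:149887391-149887406, plus strand: gaccaaaGGCTCTTTTTAGAGCCacccaag
HIST2H2BE, chr1:149886188-149886203, minus strand: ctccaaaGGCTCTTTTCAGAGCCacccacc
HIST2H3A, chr1:149853105-149853120, plus strand: tccaaaaGGCTCTTTTCAGAGCCacccaca
HIST2H4A, chr1:149833032-149833047, plus strand: tcccaaaGGCCCTTTTTAGGGCCgaccact
HIST4H4, chr12:14770724-14770739, minus strand: tccaaaaGGCCCTTTTCAGGGCCcccaaac
The loop of 4 letters was TTTC in 6 of these windows and differed from it in 1 letter in the other 4. In the annotation some members also had a transcript that runs on past the loop. The exonic sequence past the loop reached 1128 bases in HIST1H2AC, 1729 in HIST2H2BE, 1167 in HIST2H4A and 1510 in HIST4H4, while it stopped at 4 bases in HIST1H1C and 5 in HIST2H2AC, HIST2H2AA3 and HIST2H3A. By the measure of at least 100 bases past the loop in a GENCODE transcript, 17 of 68 members (25%) were extended. HIST1H2BK had 5 bases past the loop in GENCODE but a RefSeq gene span that ran on for 8073 bases, and counting RefSeq spans as well, an alternative chosen after seeing the data, made it 18 of 68 (26.5%).

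In the untreated or sgRosa libraries a few members made up most of the polyadenylated histone RNA. Taking the mean over the 9 lines of each line's median, HIST1H2BK (an H2B gene, now H2BC12, chr6:27138293-27146858) stood at 211 TPM, HIST1H1C (H1-2, the linker histone H1.2, chr6:26055740-26056470) at 75.7 TPM, HIST1H2BD (H2BC5, chr6:26158121-26171349) at 60.1 TPM and HIST1H2AC (an H2A gene) at 38.1 TPM. They were followed by HIST2H2AA3/HIST2H2AA4 (H2A, the first at chr1:149842218-149842750) at 27.2 TPM, HIST2H4A/HIST2H4B (H4, the first at chr1:149832657-149833052) at 26.2 TPM, HIST1H2BC (H2B) at 16.6 TPM and HIST3H2A (H2A) at 15.7 TPM. TPM is scaled to annotated transcript length, so these levels can be compared only as far as the annotation covers the polyadenylated forms, which was not tested. The 10 most abundant members held 52.3 to 81.7% of the summed level, as the range over the 9 lines of the median of each line's control libraries. At least 1 TPM was reached by 10 of 68 members in every library of the series, and by 29 in fewer than 50% of the libraries.

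The lines differed widely in these levels, although their tables were normalized separately and no difference between lines was tested. HIST1H2BK had a control median of 39.4 TPM in RH30, 56.3 in T84, 59.6 in A375, 79.2 in AsPC-1, 108 in H1048, 153 in SUIT-2, 240 in BxPC-3, 534 in CFPAC-1 and 631 in T3M-4. The same 2 lines were high for HIST1H1C, at 260 TPM in CFPAC-1 and 192 TPM in T3M-4, against 17.4 TPM in RH30. HIST1H2BD ranged from 6.66 TPM in A375 to 218 TPM in T3M-4, and HIST2H4A from 4.52 TPM in T84 to 107 TPM in T3M-4. HIST3H2A was listed at 0 in RH30 but stood at 25.6 TPM in T3M-4. The summed level of the 68 members in control libraries was 148 to 156 TPM in RH30, 217 to 261 in T84, 254 to 278 in A375, 381 to 412 in H1048, 176 to 481 over the 17 control libraries of AsPC-1, 672 to 943 over 6 in BxPC-3, 1607 to 1723 in CFPAC-1 and 1757 to 2786 over 9 in T3M-4. SUIT-2 had 344 to 483 TPM in 3 of its sgRosa libraries and 1539 TPM in the other. In order of the median the ranges of T84, A375, AsPC-1, H1048 and SUIT-2 each overlapped that of the next line, and SUIT-2 overlapped BxPC-3 only through its single high library, while RH30, BxPC-3 and CFPAC-1 ended below the line that followed them. The number of members with a control median of at least 1 TPM went from 24 in AsPC-1 to 53 in T3M-4.

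**Figure D1:**
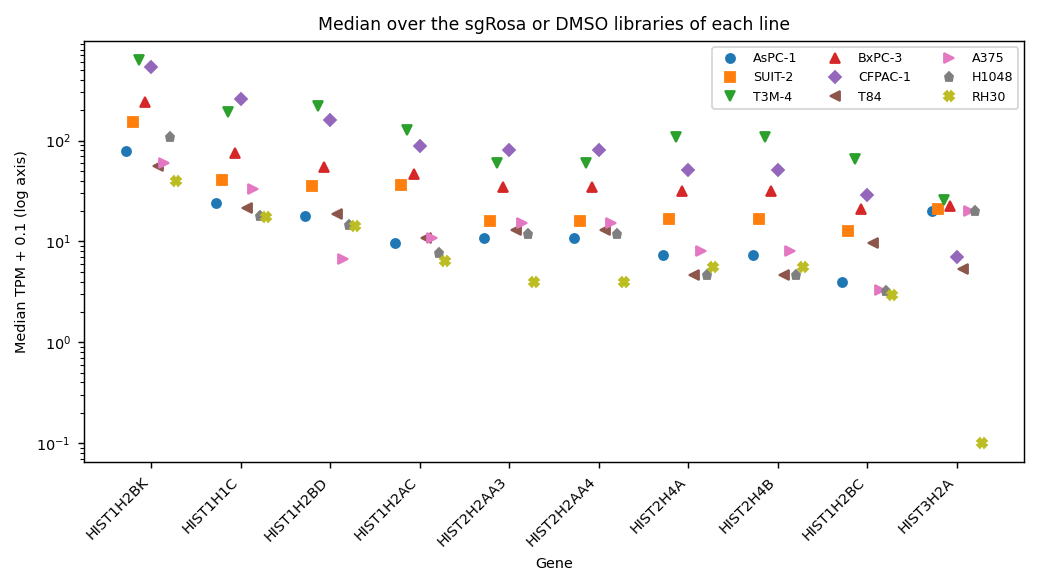
Median level of the 10 most abundant clustered histone genes in the control libraries (sgRosa or DMSO) of each of the 9 lines, as TPM + 0.1 on a log axis, 1 point per gene and line. HIST1H2BK reached 631 TPM in T3M-4, and HIST3H2A was listed at 0 in RH30.

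Single libraries stood apart in 2 groups that matter below. In SUIT-2, sgRosa replicate 1 had a summed histone level of 1539 TPM against 344 to 483 TPM in the other sgRosa libraries, and 56 of 68 members were higher there than in all 7 other SUIT-2 libraries. The matching share of all genes was not counted, so whether the histone genes differed more than other genes there is not known. That library held 11783 genes at 1 TPM or above, against 12289 to 12802 in the other 7. In T3M-4 experiment 1, sgKLF5 replicate 2 stood apart. Libraries of the series held 11292 to 14024 genes at 1 TPM or above. The targeted genes were lower than in sgRosa in all 9 RUVBL1 or RUVBL2 knockouts, at 0.27 to 0.45 of the control mean with no overlap of libraries, and RPA3 was lower in all 6 Rpa3 knockouts, at 0.37 to 0.82, also without overlap. CDK1 mRNA was at 0.36 of its control in T3M-4, 0.65 in BxPC-3 and 0.87 in AsPC-1 without overlap, but at 0.93 with overlapping libraries in CFPAC-1. SERPINB5 mRNA was at 0.39 of its control, and KLF5 mRNA in CFPAC-1 at 0.75, both without overlap. In the other KLF5 knockouts KLF5 mRNA was at 0.77 to 1.70 and in none lower without overlap, and CHD4 mRNA was at 1.24. So mRNA did not check those labels, nor that of CDK1 in CFPAC-1. RUVBL1 reached a median of 2824 TPM in AsPC-1 and 1973 TPM in T3M-4 carrying RUVBL1_A62T, and RUVBL2 reached 2004 and 1248 TPM in those carrying RUVBL2_dF109. Some markers matched the labelled tissues, with median CDX2 at 69.5 TPM in T84, SOX10 at 206 TPM in A375, POU2F3 at 382 TPM in H1048 and MYOD1 at 540 TPM in RH30. Others did not, since the melanocyte pigment genes PMEL (2.13 TPM) and MLANA (1.44 TPM) were near 0 in A375. Of the other tuft cell genes looked at in H1048, GFI1B was at 72.8 TPM but TRPM5 at 0.07 TPM. ASCL2 was at 6.14 TPM there, below its 26.6 TPM in T84. In bulk RNA, fewer cells in a state and less RNA per cell cannot be told apart.

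CB-6644 was first compared with DMSO in the 4 lines of other tissues, with 4 libraries in each group. The summed level of the 68 members was higher in every CB-6644 library than in any DMSO library of the line. It was 709 to 755 TPM against 217 to 261 in T84, 1128 to 1193 against 254 to 278 in A375, 858 to 974 against 381 to 412 in H1048, and 467 to 492 against 148 to 156 in RH30. By limma on log2(TPM + 1), with Benjamini-Hochberg adjustment over all tested genes and a threshold of 0.05, 36 of 42 tested members rose and 1 fell in T84, where 47.2% of all tested genes rose and 24.2% fell. In A375, 37 of 44 rose and none fell, against 51.5 and 29.7% of all genes. In H1048, 29 of 46 rose and 2 fell, against 53.9 and 24.0%. In RH30, 26 of 36 rose and 2 fell, against 50.4 and 27.3%. Members that enter a test only through a high treated group cannot but differ, and among the members with a control mean of at least 1 TPM, 25 of 30 rose in T84, 27 of 33 in A375, 24 of 40 in H1048 and 19 of 27 in RH30. The share of all genes under the same limit was not computed. The median log2 fold change of the members was 1.13 in T84, 1.49 in A375, 0.82 in H1048 and 1.14 in RH30, against 0.13, 0.16, 0.18 and 0.13 for all tested genes.

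**Figure D2:**
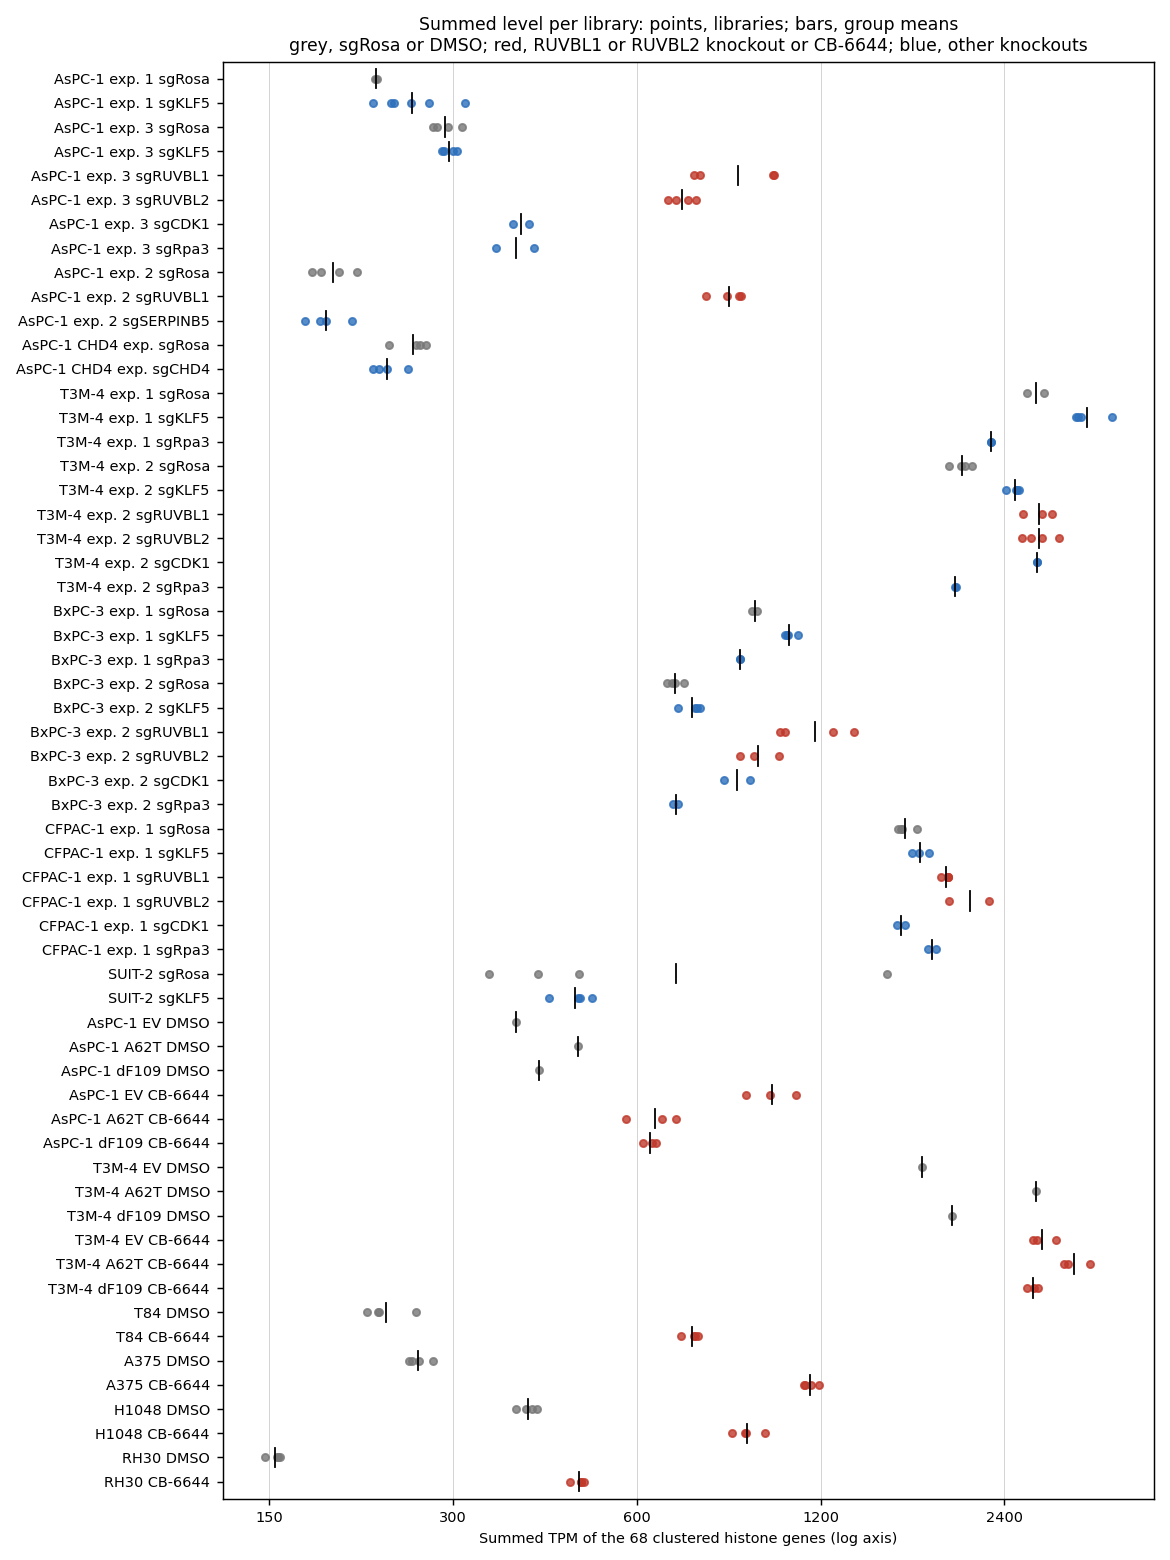
Summed level of the 68 clustered histone genes in each of the 183 libraries, in TPM on a log axis, by group. Points are libraries and bars group means, in grey for sgRosa or DMSO, red for RUVBL1 or RUVBL2 knockout or CB-6644, and blue for other knockouts; the CB-6644 libraries of A375 lie between 1128 and 1193 TPM, above its DMSO libraries at 254 to 278 TPM, and SUIT-2 sgRosa replicate 1 lies alone at 1539 TPM.

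HIST2H4A and its copy gave the largest fold change in each of the 4 lines, and the HIST2 genes on chromosome 1 held most of the leading places. HIST2H4A, 1 of the genes for H4, was at 40.7, 43.7, 40.2 and 43.9 TPM in CB-6644 and 4.51, 4.53, 5.27 and 3.95 TPM in DMSO in T84. In A375 it was at 100, 101, 103 and 109 TPM against 3.85, 8.35, 7.42 and 8.52 TPM. The groups did not overlap in either line, and the log2 fold changes were 2.96 ± 0.08 (SE, adjusted p = 3.7e-13) and 3.75 ± 0.17 (adjusted p = 4.2e-09). H1048 had HIST2H4A at 65, 66, 72.9 and 67.1 TPM against 4.49, 4.68, 4.38 and 7.98 TPM. In RH30 it was at 58.5, 52.8, 48.8 and 46.2 TPM against 5.05, 5.86, 7.94 and 3.58 TPM. Again every CB-6644 library was above every DMSO library, by 3.46 ± 0.13 (adjusted p = 6.8e-10) and 3.03 ± 0.15 (adjusted p = 3e-09) on the log2 scale.

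HIST2H2AA3, an H2A gene of the same cluster, rose in all 4 lines too. It was at 73.4, 80.1, 77.6 and 72.7 TPM against 18.2, 12.7, 11.7 and 12.8 TPM in T84, and at 113, 114, 112 and 113 TPM against 14.4, 15.8, 12.6 and 17.3 TPM in A375. The libraries in CB-6644 were again all higher, and the log2 fold change was 2.39 in T84, 2.84 in A375, 2.49 in H1048 and 2.49 in RH30. HIST2H3A, an H3 gene (H3C15, chr1:149852608-149853125), rose by 3.69 in A375, 3.04 in H1048 and 1.78 in RH30, and in T84 reached the tested level only through its CB-6644 libraries, with a mean of 10.4 TPM against 0.835 TPM. Its A375 libraries were at 34.8, 29.8, 39.6 and 29.4 TPM in CB-6644 against 1.62, 2.5, 1.42 and 1.23 TPM in DMSO.

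**Figure D3:**
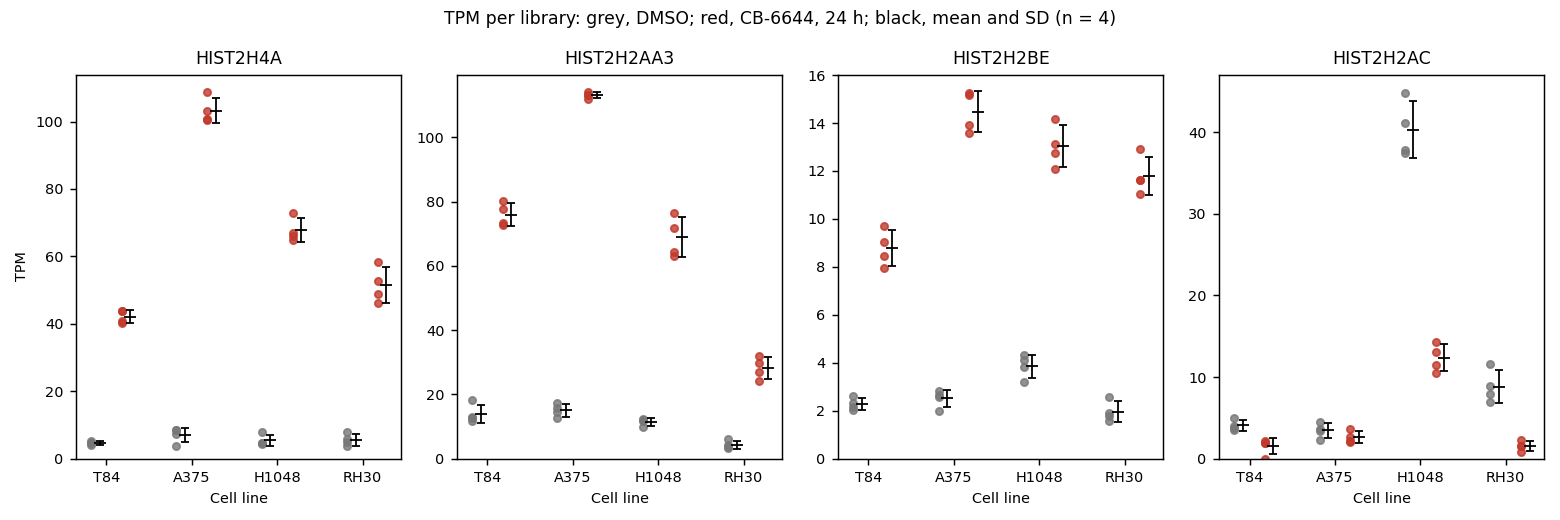
Level of HIST2H4A, HIST2H2AA3, HIST2H2BE and HIST2H2AC in each library of T84, A375, H1048 and RH30, in TPM, with DMSO in grey and CB-6644 in red; black marks are the mean and SD (n = 4). The first 3 genes are higher in CB-6644 in all 4 lines, with HIST2H4A at 100 to 109 TPM against 3.85 to 8.52 TPM in A375, and HIST2H2AC is lower in H1048 at 10.5 to 14.3 TPM against 37.4 to 44.9 TPM.

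Of the abundant HIST1 genes, 2 H2B genes rose in all 4 lines. HIST1H2BD was at 69.4, 71.4, 72.5 and 62.3 TPM in CB-6644 against 16.1, 18.8, 18.9 and 18.6 TPM in T84, and at 55.9, 61.3, 57.8 and 56.7 TPM against 8.94, 6.4, 6.92 and 6.36 TPM in A375. No library overlapped, and its log2 fold change was 1.87 in T84, 2.86 in A375, 1.06 in H1048 and 1.66 in RH30. HIST1H2BK, the most abundant member, was at 142, 134, 145 and 131 TPM against 58.8, 50.1, 53.7 and 59.3 TPM in T84, a log2 fold change of 1.3. It rose by 0.85 in A375, 1.1 in H1048 and 1.32 in RH30. HIST1H2BN, another H2B gene, rose by 0.74, 1.77 and 1.58 in T84, H1048 and RH30. In A375 its DMSO mean of 0.532 TPM was below the level required for testing, which it reached only through the CB-6644 libraries (mean 8.60 TPM).

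The linker histone gene HIST1H1C and the H2A gene HIST1H2AC, both among the most abundant members, moved less. HIST1H1C was at 26.9, 35, 35.1 and 29.4 TPM in CB-6644 against 25.1, 19.5, 20.6 and 22.4 TPM in T84 and rose there by 0.50. It did not pass the test in A375 (log2 fold change -0.07), H1048 (-0.10) or RH30 (0.16). HIST1H2AC rose by 1.00 in T84, 0.48 in A375 and 0.36 in H1048, where its libraries overlapped, and its change of 0.15 in RH30 did not pass the test. HIST4H4, the single H4 gene on chromosome 12 (H4C16, chr12:14770720-14771131), rose by 1.11 in A375 and was not tested in RH30. In T84, at 4.25, 1.75, 5.07 and 6.64 TPM against 1.74, 0.544, 1 and 0.548 TPM, and in H1048, with a mean of 2.31 against 0.338 TPM, its DMSO mean was under 1 TPM and it entered the test only through the CB-6644 libraries. The H2A gene HIST3H2A rose by 1.61, 2.04 and 1.37 in T84, A375 and H1048 and was listed at 0 in all 8 RH30 libraries. Single lines held further large rises, among them HIST1H2BO (H2B) in RH30, at 14.9, 13.3, 11.2 and 15.7 TPM against 1.37, 1.51, 1.35 and 0.887 TPM (log2 fold change 2.69). HIST1H4K (H4) in A375 was at 48.6, 31, 58.1 and 36.5 TPM against 0, 11.5, 5.02 and 10.2 TPM (3.01 ± 0.65). Of the 32 members tested in all 4 lines, 18 rose in all 4. The matching share over all genes was not computed, and 47.2 to 53.9% of all tested genes rose in each single line. The 32 include HIST2H3A, which entered the test in T84 only through its CB-6644 libraries. Besides HIST2H2AC, the members that fell were HIST1H3J (H3) in H1048, at 4.54, 4.29, 3.75 and 3.56 TPM against 6.25, 8.78, 6.56 and 5.37 TPM (-0.61), and HIST1H4C (H4) in RH30, with overlapping libraries (-0.73).

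HIST2H2AC was the member that most often went the other way. It encodes an H2A and lies next to HIST2H2BE, an H2B gene on the opposite strand, and the annotated starts of the 2 genes are 236 bases apart (HIST2H2AC at chr1:149886918-149887411 and HIST2H2BE at chr1:149884459-149886682). In H1048 HIST2H2AC was at 13.1, 11.5, 10.5 and 14.3 TPM in CB-6644 against 37.8, 37.4, 41.2 and 44.9 TPM in DMSO. HIST2H2BE was at 12.1, 13.1, 12.7 and 14.2 TPM against 4.09, 4.3, 3.84 and 3.19 TPM in the same libraries. The neighbours therefore moved in opposite directions with no overlap of libraries, HIST2H2AC by -1.63 ± 0.09 (SE, adjusted p = 7.4e-09) and HIST2H2BE by 1.53. In RH30 HIST2H2AC was at 1.51, 2.28, 0.743 and 1.5 TPM against 6.88, 11.6, 7.9 and 8.9 TPM. Its fall there was -1.98 ± 0.18 (adjusted p = 4.5e-07), beside a rise of HIST2H2BE by 2.12. In T84 HIST2H2AC was at 1.95, 2.17, 0 and 1.92 TPM against 5, 3.79, 4.05 and 3.48 TPM, a fall of -1.14 ± 0.27 (adjusted p = 0.0013), beside a rise of HIST2H2BE by 1.58. In A375 the HIST2H2AC libraries overlapped (2.03, 3.67, 2.67 and 2.14 TPM against 2.22, 4.53, 3.4 and 3.62 TPM) and its change of -0.29 ± 0.17 did not pass the test (adjusted p = 0.14), while HIST2H2BE rose by 2.15. Over the 19 comparisons of RUVBL1 or RUVBL2 knockout or CB-6644 with their controls, HIST2H2AC fell in 5, rose in 0 and did not pass the test in 14, and HIST2H2BE rose in 14 and fell in 0.

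The promoters of these neighbours and of the HIST2 genes with the largest rises are printed below, as the 150 bases before the annotated start (RefSeq, GRCh38.p14), 5′ to 3′ on the strand of the gene. Capitals mark exact matches, on either strand, to the CCAAT box, the TATA box forms TATAAA and TATAAG, and the octamer ATTTGCAT, which OCT1 binds. The windows of HIST2H2BE and HIST2H2AC overlap, since both lie in the same stretch between the genes, and in HIST2H2AC a match to TATAAA overlaps a match to TATAAG on the other strand.
HIST2H2BE, chr1:149886683-149886832, minus strand: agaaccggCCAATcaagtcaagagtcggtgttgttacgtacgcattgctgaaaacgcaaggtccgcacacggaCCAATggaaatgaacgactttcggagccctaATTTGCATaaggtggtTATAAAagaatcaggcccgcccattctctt
HIST2H2AC, chr1:149886768-149886917, plus strand: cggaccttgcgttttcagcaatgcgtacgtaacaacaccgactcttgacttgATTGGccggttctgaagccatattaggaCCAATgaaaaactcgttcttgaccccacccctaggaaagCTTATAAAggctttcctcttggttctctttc
HIST2H2AA3, chr1:149842751-149842900, minus strand: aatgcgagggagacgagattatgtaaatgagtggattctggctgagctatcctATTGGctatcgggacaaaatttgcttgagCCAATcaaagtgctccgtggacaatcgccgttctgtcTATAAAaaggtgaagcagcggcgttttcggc
HIST2H4A, chr1:149832507-149832656, plus strand: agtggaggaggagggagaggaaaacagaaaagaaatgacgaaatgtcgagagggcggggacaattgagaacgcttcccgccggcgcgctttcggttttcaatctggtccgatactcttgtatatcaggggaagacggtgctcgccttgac
HIST2H2BE holds CCAAT and TATAAA as well as the octamer in this window, HIST2H2AC and HIST2H2AA3 hold the same boxes but not the octamer, and none of these letters are in the window of HIST2H4A, which rose most. In the 250 bases before the start, searched on both strands, CCAAT was present in 53 of 63 members with a promoter in the table (84.1%) against 33% of 27305 promoters, TATAAA in 41 (65.1%) against 11.1%, TATAAG in 24 (38.1%) against 5.09% and ATTTGCAT in 24 (38.1%) against 1.66%.

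AsPC-1 and T3M-4 carrying Lv-Empty, RUVBL1_A62T or RUVBL2_dF109 addressed whether a resistant subunit changes the response to CB-6644. Each vector had 3 CB-6644 libraries and 1 DMSO library, and the 3 DMSO libraries of a line were pooled as the control. In AsPC-1 the summed histone level was 907 to 1094 TPM in CB-6644 with the empty vector, 575 to 696 TPM with RUVBL1_A62T and 615 to 645 TPM with RUVBL2_dF109, against 380, 481 and 415 TPM in the DMSO libraries of the same vectors. With the empty vector 37 of 42 members rose and 0 fell, against 47.2 and 17.2% of all genes. With RUVBL1_A62T 16 rose and 0 fell, against 10.8 and 1.98%, and with RUVBL2_dF109 19 rose and 1 fell, against 29.3 and 4.10%. The RUVBL1_A62T count was 6 without its CB-6644 replicate 1 and 10 without replicate 3 or without the RUVBL2_dF109 DMSO library, and it was 0 against its own DMSO library alone, a test in which that lone library was assumed to vary like the other groups. The median log2 fold change of the members was 1.13 with the empty vector, 0.52 with RUVBL1_A62T and 0.51 with RUVBL2_dF109, against 0.19, 0.10 and 0.14 over all genes.

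HIST2H4A was also among the genes that rose in AsPC-1. It was at 43.7, 58.6 and 58.1 TPM in CB-6644 with the empty vector, 36.1, 31.2 and 40.9 TPM with RUVBL1_A62T and 33.4, 32.3 and 33.7 TPM with RUVBL2_dF109, against 15, 24.3 and 17.7 TPM in the DMSO libraries. All 9 CB-6644 libraries were above the 3 DMSO libraries, and the log2 fold changes were 1.46, 0.91 and 0.80. HIST2H3A rose by 2.18, 0.53 and 0.78, HIST3H2BB (H2B) by 2.13, 1.32 and 1.29, and HIST1H2BK by 0.91, 0.51 and 0.47 in the same order. HIST1H1C rose with the empty vector by 0.53 and did not pass the test with RUVBL1_A62T (0.09) or RUVBL2_dF109 (0.04). HIST2H2AC fell with RUVBL2_dF109, at 1.73, 1.49 and 0.274 TPM against 1.92, 2.58 and 2.94 TPM (-0.75), and did not pass the test with the empty vector (-0.09) or RUVBL1_A62T (-0.61).

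The vectors were also compared with each other in CB-6644. In AsPC-1, 29 of 42 members were higher with the empty vector than with RUVBL1_A62T and 0 lower, against 32.3 and 18.9% of all genes, and 30 were higher than with RUVBL2_dF109 and 0 lower, against 26.3 and 20.9%. HIST2H3A was higher with the empty vector by 1.65 and 1.4, HIST2H2AA3 by 0.97 and 0.89, HIST1H2BD by 0.74 and 0.64, HIST2H4A by 0.55 and 0.66, HIST1H1C by 0.43 and 0.49 and HIST1H2BK by 0.41 and 0.45 on the log2 scale. HIST1H2AC did not pass the test in either, at -0.01 and 0.29.

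T3M-4, whose control level of these genes was the highest, gave another picture. Its DMSO libraries differed among themselves, with a summed level of 1757 TPM with the empty vector, 2702 TPM with RUVBL1_A62T and 1971 TPM with RUVBL2_dF109. The CB-6644 libraries were at 2668 to 2918, 3002 to 3314 and 2614 to 2725 TPM, so 2 of the groups overlapped the DMSO range. Against the pooled DMSO libraries, 34 of 57 members rose and 1 fell with the empty vector (19.1 and 15.2% of all genes), 34 rose and 0 fell with RUVBL1_A62T (45.4 and 4.60%), and 26 rose and 0 fell with RUVBL2_dF109 (34.3 and 3.34%). With RUVBL1_A62T, 59.6% of members thus rose beside 45.4% of all genes, and after scaling by the median of ratios its members split into 17 higher and 1 lower and those of RUVBL2_dF109 into 10 higher and 2 lower. Against its own DMSO library alone RUVBL1_A62T had 0 members called. The RUVBL2_dF109 count of 26 became 12 to 14 without any 1 of its CB-6644 libraries, 11 without its DMSO library and 13 without the Lv-Empty DMSO library.

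HIST1H3A, an H3 gene, showed the clearest order in T3M-4. It was at 9.41, 10.4 and 8.82 TPM in CB-6644 with the empty vector, 2.57, 3.53 and 2.78 TPM with RUVBL1_A62T and 5.54, 4.37 and 4.64 TPM with RUVBL2_dF109, against 1.37, 1.93 and 1.82 TPM in DMSO. The 4 ranges did not overlap, and it rose by 1.96, 0.55 and 1.11. HIST2H4A was at 204, 191 and 182 TPM, 225, 256 and 237 TPM, and 191, 185 and 197 TPM in CB-6644 against 80.5, 184 and 114 TPM in DMSO, and rose by 0.69, 1.00 and 0.68, although with the empty vector its libraries overlapped those of DMSO. HIST2H3D (H3) rose by 1.53, 1.26 and 0.91 and HIST1H2BE (H2B) by 1.45, 1.05 and 1.58. HIST1H1C was the member that fell with the empty vector, at 117, 124 and 119 TPM against 144, 183 and 157 TPM (-0.42 ± 0.09, adjusted p = 0.0037).

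Compared with RUVBL1_A62T in CB-6644, the empty vector had 11 of 57 members higher and 8 lower (9.21 and 41.4% of all genes), and compared with RUVBL2_dF109 it had 11 higher and 3 lower (4.86 and 29.8%). HIST1H3A was higher with the empty vector by 1.42 and 0.85. HIST1H2AC was lower by -1.27 and -0.62, HIST2H2BE by -0.85 and -0.54 and HIST1H1C by -0.60 and -0.31. In these 2 comparisons the scaling mattered, since after the median of ratios they held 26 higher and 7 lower, and 23 higher and 0 lower. The second count, 14 in all, was 6 and 8 without Lv-Empty CB-6644 replicates 2 and 3, and 6, 5 and 3 without RUVBL2_dF109 CB-6644 replicates 1, 2 and 3.

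Knockout of RUVBL1 or RUVBL2 asked whether loss of either protein gave the same pattern as the inhibitor, here after 5 days. In AsPC-1 experiment 2 the summed level was 778 to 888 TPM after RUVBL1 knockout against 176 to 209 TPM in sgRosa, and 31 of 34 members rose and 0 fell (30.0 and 25.8% of all genes). In experiment 3 it was 745 to 1007 TPM for RUVBL1 and 675 to 751 TPM for RUVBL2 against 278 to 310 TPM. There 28 of 41 members rose and 1 fell after RUVBL1 knockout (36.6 and 15.2% of all genes), and 23 rose and 0 fell after RUVBL2 knockout (32.2 and 11.0%). The median log2 fold change of the members was 1.73, 1.27 and 0.96 against 0.02, 0.16 and 0.13 over all genes. Among members with a control mean of at least 1 TPM, 21 of 24 rose in experiment 2, and 19 and 17 of 30 in experiment 3. The share of all genes under this limit was not computed.

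In experiment 2 HIST2H4A was at 43.9, 40.1, 48.8 and 56.1 TPM after RUVBL1 knockout against 5.85, 1.57, 6.32 and 1.37 TPM in sgRosa (3.52 ± 0.31). HIST1H2BD was at 54.1, 53.7, 60.8 and 55.6 TPM against 8.03, 8.24, 6.64 and 7.4 TPM (2.73), and HIST1H2BK at 232, 211, 242 and 253 TPM against 60.4, 55, 76 and 57.3 TPM (1.91). Libraries did not overlap for any of these. HIST2H2AA3 rose by 2.98, HIST2H2BE by 1.75, HIST1H2AC by 1.38 and HIST1H1C by 1.23. HIST2H2AC was at 3.49, 3.15, 3.99 and 3.3 TPM against 8.73, 5.44, 3.16 and 7.42 TPM and did not pass the test (-0.61).

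In experiment 3 HIST2H4A was at 55.4, 49.1, 39.3 and 44.5 TPM after RUVBL1 knockout and 29.3, 41.5, 35 and 38.8 TPM after RUVBL2 knockout against 7.81, 8.7, 8.8 and 7.3 TPM in sgRosa (2.38 and 2.01). Both groups lay above the control. HIST1H2BN was at 12.7, 22.6, 12.7 and 7.61 TPM and 6.79, 5.09, 7.35 and 5.26 TPM against 0.385, 0.587, 0 and 1.93 TPM, values given as a description, since its sgRosa mean of 0.726 TPM let it into the test only through knockout libraries. HIST3H2BB rose by 2.50 and 2.15, HIST1H2BD by 1.54 and 1.25, HIST1H2BK by 1.04 and 1.06 and HIST1H1C by 1.09 and 0.99. HIST1H2AC overlapped the control and did not pass the test (0.50 and 0.58), and HIST2H2AC fell after RUVBL1 knockout with overlapping libraries, at 2.11, 0, 0.885 and 0 TPM against 4.37, 1.83, 4.24 and 3 TPM (-1.44 ± 0.58, adjusted p = 0.046).

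In T3M-4 the summed level was 2574 to 2876 TPM after RUVBL1 and 2569 to 2944 TPM after RUVBL2 knockout against 1946 to 2124 TPM. Of 52 members, 31 rose and 1 fell (45.9 and 14.6% of all genes), and 28 rose and 1 fell (39.3 and 15.2%). After scaling by the median of ratios the splits were 23 and 1, and 19 and 3. HIST2H4A was at 162, 200 and 188 TPM after RUVBL1 and 218, 178, 195 and 174 TPM after RUVBL2 knockout against 105, 121, 115 and 103 TPM (0.72 and 0.78). HIST1H2BD was at 324, 366 and 321 TPM and 382, 340, 348 and 333 TPM against 215, 214, 220 and 216 TPM (0.63 and 0.69). Both genes had no overlap with sgRosa, at folds well below those in AsPC-1 though from a higher starting level, a difference between lines that was not tested. HIST1H4D (H4) rose by 1.44 and 1.48 and HIST2H2BF (H2B) by 1.51 and 1.00. HIST1H2BK fell after RUVBL1 knockout, at 510, 521 and 593 TPM against 631, 661, 594 and 656 TPM (-0.23 ± 0.08, adjusted p = 0.017), and did not pass the test after RUVBL2 knockout (-0.13).

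In BxPC-3 the sums were 1029 to 1361 TPM after RUVBL1 and 886 to 1026 TPM after RUVBL2 knockout against 672 to 718 TPM. Of 33 members, 10 rose and 0 fell (8.29 and 7.67% of all genes), and 6 rose and 0 fell (4.27 and 5.48%). Both counts of risers include HIST2H2AA4 and HIST2H4B, whose values are identical to those of HIST2H2AA3 and HIST2H4A. HIST2H4A was at 83.3, 96.5, 65.5 and 74.2 TPM and at 71.1, 47.7 and 45.6 TPM against 27.7, 26.6, 32.3 and 30.3 TPM (1.41 and 0.86). HIST1H2BD rose by 1.16 and 0.90, HIST2H2AA3 by 1.21 and 0.74 and HIST1H2BK by 0.71 and 0.50, all without overlap of libraries. HIST1H1C (-0.10 and 0.02) and HIST1H2AC (0.11 and 0.17) did not pass the test.

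In CFPAC-1 the sums were 1891 to 1942 TPM after RUVBL1 knockout and 1946 and 2262 TPM in the 2 RUVBL2 libraries against 1607 to 1723 TPM. Of 48 members, 11 rose and 1 fell (6.54 and 37.3% of all genes), and 9 rose and 0 fell (2.83 and 9.26%). Without RUVBL2 replicate 1 the second count was 1. HIST2H4A was at 95.9, 83.8, 91 and 78.2 TPM after RUVBL1 and 90.3 and 90.2 TPM after RUVBL2 knockout against 40.4, 54.5, 66 and 46.4 TPM (0.76 and 0.81). HIST2H2AA3 rose by 0.51 and 0.48, HIST1H2AM (H2A) by 1.52 and 1.98 and HIST3H2A by 1.29 and 1.14, with no overlap of libraries. HIST1H2BK (0.10 and 0.27), HIST1H2AC (-0.02 and 0.40) and HIST2H2BE (-0.15 and -0.06) did not pass the test, and HIST2H2BF fell after RUVBL1 knockout.

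**Figure D4:**
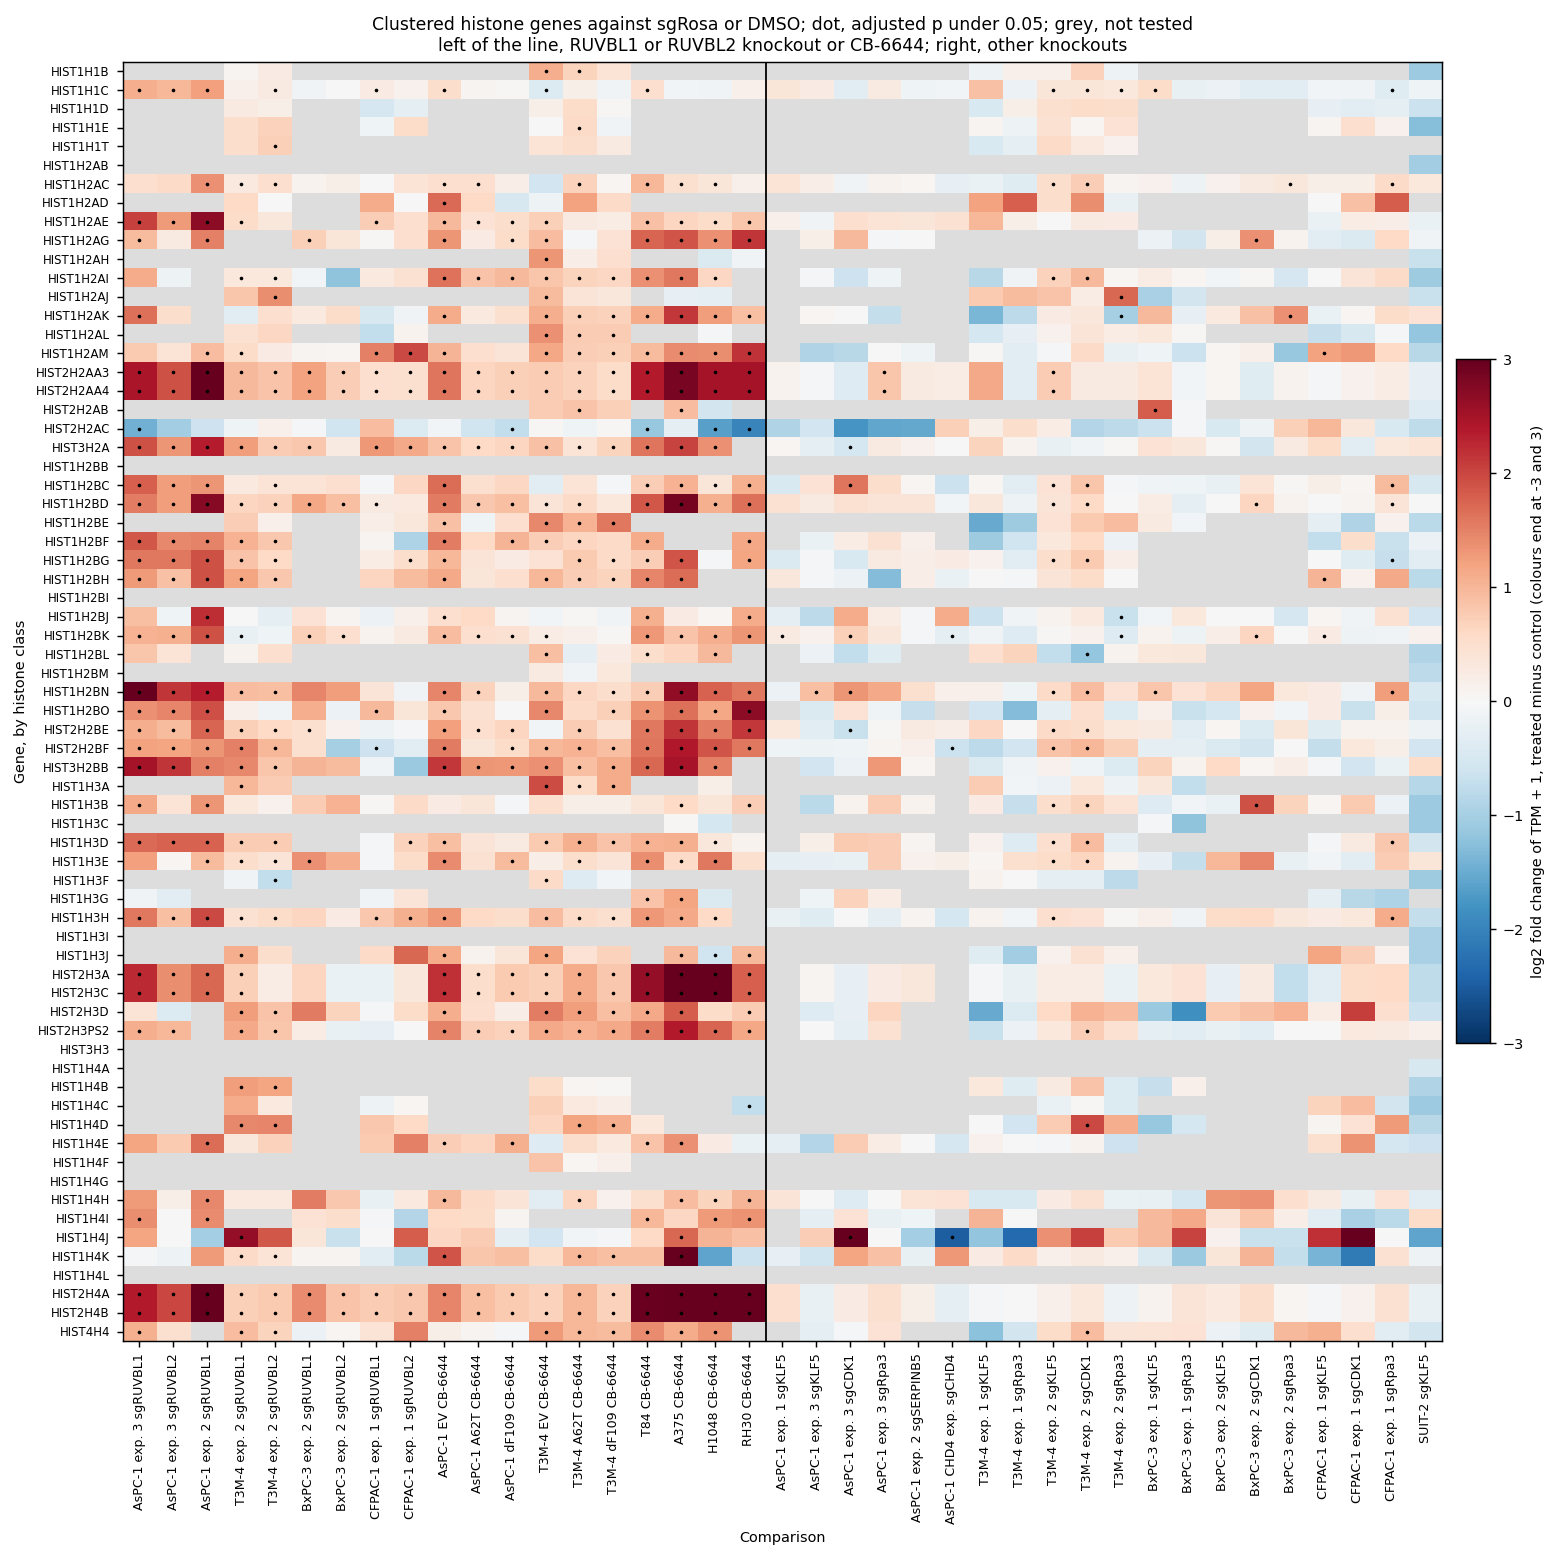
Log2 fold change (on TPM + 1) of each clustered histone gene, in lines, for each comparison with sgRosa or DMSO, in columns, from blue (lower) to red (higher) with colours ending at -3 and 3, grey where not tested and a dot where the adjusted p was under 0.05. Left of the vertical line are the 19 comparisons of RUVBL1 or RUVBL2 knockout or CB-6644, in all of which HIST2H4A and HIST2H2AA3 rose, and right of it the 20 other knockouts (EV, A62T and dF109 stand for Lv-Empty, RUVBL1_A62T and RUVBL2_dF109). The CB-6644 comparisons of AsPC-1 and T3M-4 use DMSO libraries pooled over the vectors.

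After KLF5 knockout the share of members that rose was above that of all genes in T3M-4 experiment 2, at 28.8 against 23.4%, and in CFPAC-1, at 6.25 against 3.26%. It was below that of all genes in the other KLF5 comparisons. Every KLF5 library had a higher summed level than every sgRosa library in T3M-4 experiment 1 (3147 to 3600.4 against 2611 to 2786 TPM) and experiment 2 (2415 to 2536 against 1946 to 2124 TPM) and in BxPC-3 experiment 1 (1049 to 1099.8 against 927 to 943 TPM). The libraries overlapped in BxPC-3 experiment 2 (700 to 761 against 672 to 718 TPM) and in CFPAC-1 (1693 to 1807 against 1607 to 1723 TPM). In AsPC-1 the summed level was 222 to 314 TPM against 223 to 225 TPM in experiment 1 and 288 to 304 TPM against 278 to 310 TPM in experiment 3. In experiment 1, 1 of 23 members rose and 0 fell (17.1 and 8.81% of all genes), HIST1H2BK at 79.2 to 91.3 TPM over 6 libraries against 74.2 and 64.9 TPM (0.27). In experiment 3, 1 of 41 rose (HIST1H2BN, with the sgRosa mean under 1 TPM given above) and 0 fell (15.4 and 12.3%). The single call of experiment 1 was lost without KLF5 replicate 1, 3 or 6 and became 3 without replicate 4 and 2 without either sgRosa library, and that of experiment 3 was lost without KLF5 replicate 4 or sgRosa replicate 1, 2 or 3. In T3M-4 experiment 2, 15 of 52 rose and 0 fell (23.4 and 11.2%), and after scaling by the median of ratios 11 rose and 1 fell. HIST2H2AA3 was there at 99.5, 98.8, 93.8 and 88.8 TPM against 51.9, 57.6, 53.7 and 59.6 TPM (0.76), and HIST2H2BE at 37.6, 37.7, 36.2 and 36.1 TPM against 25.8, 23.7, 27.9 and 20.7 TPM (0.58), both without overlap. HIST2H4A, at 134, 128, 118 and 113 TPM against 105, 121, 115 and 103 TPM, did not pass the test (0.15).

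In T3M-4 experiment 1 limma called 0 of 52 members after KLF5 knockout (3.26 and 2.46% of all genes), with 6 higher and 2 lower at an unadjusted p under 0.05. Replicate 2 lay apart in this group, with HIST1H1C at 554, 911, 451 and 438 TPM against 296 and 315 TPM in sgRosa, and HIST1H2AC at 218, 64.6, 217 and 214 TPM against 184 and 185 TPM. Without replicate 2, 12 members were called (10 higher and 2 lower), and without replicate 4, 1. In BxPC-3, 3 of 42 members rose and 0 fell in experiment 1 (8.09 and 8.10%), among them HIST1H1C at 106, 93.8, 113 and 105 TPM against 67.1 and 74.3 TPM (0.56). An sgRosa mean of at least 1 TPM was held by 2 of these 3. In experiment 2, 0 of 33 were called (21.0 and 13.6%), with 5 higher and 0 lower at an unadjusted p under 0.05 in limma, and 1 was called without KLF5 replicate 3 or sgRosa replicate 1, 2 or 3. The BxPC-3 experiment 1 count was 5 without KLF5 replicate 1, 1 without replicate 2 or 4 and 0 without sgRosa replicate 1. In CFPAC-1, 3 of 48 rose and 0 fell (3.26 and 13.0%), among them HIST1H2BK at 611, 669 and 576 TPM against 513, 556, 555 and 462 TPM (0.25). That count was 1 without KLF5 replicate 1 or 3 or sgRosa replicate 3, and 0 without KLF5 replicate 2 or sgRosa replicate 1.

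In SUIT-2, 0 of 59 members were called after KLF5 knockout by limma (2.94 and 1.00% of all genes), and 0 were higher and 0 lower at an unadjusted p under 0.05. The median log2 fold change was -0.60 with sgRosa replicate 1 and 0.15 without it. Without that library 33 members were tested and 1 rose, HIST1H2AG (H2A), at 3.87, 3.84, 4.44 and 4.12 TPM after KLF5 knockout and 33.8, 1.8, 1.81 and 2.31 TPM in sgRosa, the first of these being replicate 1. In that replicate 62 members reached 1 TPM, against 28 to 39 in the other 7 libraries, and 10 members stood at 10 TPM or more there and below 1 TPM in all 7 others. Over all genes, 11783 reached 1 TPM in that replicate against 12289 to 12802 in the others, and the second count was not made.

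Knockout of CDK1 or Rpa3, genes that dividing cells need, called few members except for CDK1 in T3M-4. After CDK1 knockout 4 of 41 members rose and 2 fell in AsPC-1 (10.3 and 6.44% of all genes), 15 of 52 rose and 1 fell in T3M-4 (13.0 and 3.85%), 4 of 33 rose and 0 fell in BxPC-3 (3.71 and 2.12%), and limma called 0 of 48 in the CFPAC-1 libraries labelled sgCDK1, a label that CDK1 mRNA did not check (0 and 0%), with 5 higher and 4 lower at an unadjusted p under 0.05. An sgRosa mean of at least 1 TPM was held by 2 of the 4 risers in AsPC-1, 15 of 15 in T3M-4 and 3 of 4 in BxPC-3. In AsPC-1 HIST1H2BC was at 12.2 and 15.6 TPM against 4.89, 3.11, 4.22 and 3.34 TPM (1.62) and HIST2H2BE at 2.25 and 2.02 TPM against 3.95, 3.56, 4.57 and 3.77 TPM (-0.66). In T3M-4 HIST1H4D was at 11 and 12.3 TPM against 0.798, 4.13, 3.42 and 1.57 TPM (1.98), and in BxPC-3 HIST1H2BD was at 86.6 and 79.2 TPM against 50.3, 47.9, 58.5 and 52.7 TPM (0.66). The libraries were apart for each of these genes, but the counts rested on 2 CDK1 libraries per line. Without CDK1 replicate 1 or 2 they were 2 and 3 in AsPC-1, 10 and 8 in T3M-4, and 1 and 2 in BxPC-3, and the AsPC-1 count was also 3 without sgRosa replicate 1, 3 or 4.

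After Rpa3 knockout 2 of 41 members rose and 0 fell in AsPC-1 (0.638 and 0.0164% of all genes), 2 of 52 rose and 3 fell in T3M-4 experiment 2 (18.4 and 6.20%), 2 of 33 rose and 0 fell in BxPC-3 experiment 2 (9.12 and 11.6%), and 6 of 48 rose and 2 fell in CFPAC-1 (8.17 and 3.39%). In AsPC-1 the risers were the identical HIST2H2AA3 and HIST2H2AA4, at 17 and 14.3 TPM against 7.89, 7.63, 7.07 and 10.7 TPM (0.84). In T3M-4 only 1 of the 2 risers had an sgRosa mean of at least 1 TPM. HIST1H2BK fell there, at 528 and 451 TPM against 631, 661, 594 and 656 TPM (-0.38). In CFPAC-1 HIST1H3H (H3) was at 24 and 19.7 TPM against 8.04, 7.82, 15.7 and 8.05 TPM (1.12), and HIST1H1C fell, at 206 and 208 TPM against 272, 234, 249 and 315 TPM (-0.36). The CFPAC-1 count of 8 was 2 without Rpa3 replicate 1, 1 without replicate 2 and 5 without sgRosa replicate 1 or 4. The AsPC-1 and BxPC-3 counts of 2 were 0 without either Rpa3 library, and that of BxPC-3 was also 1 and 0 without sgRosa replicates 1 and 2. The T3M-4 count of 5 was 2 and 3 without Rpa3 replicates 1 and 2, 2 without sgRosa replicate 1 and 7 (5 higher) without sgRosa replicate 3. In experiment 1 limma called 0 of 52 members in T3M-4 (0 and 0% of all genes), with 0 higher and 2 lower at an unadjusted p under 0.05, and 0 of 42 in BxPC-3 (0.290 and 0.0161%), with 3 higher and 2 lower.

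Rpa3 and CDK1 knockouts were also set against each other. In AsPC-1, 3 members were higher after Rpa3 knockout and 2 lower (6.69 and 6.59% of all genes), among them HIST2H2AA3 and HIST2H2AA4 at 17 and 14.3 TPM against 5.49 and 6.71 TPM (1.23) and HIST1H2BC (-1.08). In T3M-4, 0 were higher and 9 lower (0.974 and 1.95%), led among others by HIST1H3D (H3) at 12.1 and 11.5 TPM against 29.7 and 27.1 TPM (-1.19). In BxPC-3, 2 were higher and 4 lower (12.2 and 14.4%), with HIST1H2BK at 230 and 222 TPM against 367 and 349 TPM (-0.66). In CFPAC-1 limma called 0 (0.416 and 0.204%), with 13 higher and 3 lower at an unadjusted p under 0.05. The AsPC-1 count of 5 was 3 without either CDK1 library and 2 without Rpa3 replicate 1. The T3M-4 count of 9 was 2 and 3 without CDK1 replicates 1 and 2 and 3 without Rpa3 replicate 1. The BxPC-3 count of 6 was 2 without either CDK1 library and 3 without either Rpa3 library, with 2 of the 3 higher without Rpa3 replicate 1.

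CHD4 and SERPINB5 were knocked out in AsPC-1 alone. After CHD4 knockout 0 of 24 members rose and 3 fell (23.3 and 26.7% of all genes), among them HIST2H2BF at 4.94, 2.55, 3.89 and 2.96 TPM against 5.11, 6.87, 7.68 and 4.94 TPM (-0.65) and HIST1H2BK at 68.9, 55.3, 72 and 69.4 TPM against 75.3, 91.4, 78.9 and 79.2 TPM (-0.29). Without CHD4 replicate 1 the count was 8. After SERPINB5 knockout limma called 0 of 34 (0.0172 and 0.0172%), with 2 higher and 2 lower at an unadjusted p under 0.05.

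Over all comparisons, the share of tested members that rose was 18.2 to 91.2% in the 19 comparisons with RUVBL1 or RUVBL2 knockout or CB-6644, against 2.83 to 53.9% for all tested genes, and lay above that of all genes in 19 of 19. In the 20 other knockout comparisons it was 0 to 28.8% and lay above that of all genes in 6. These shares count every tested member, also those that entered a test only through treated libraries, and both rows of each identical pair. Among members with a control mean of at least 1 TPM, 24 of 40 rose in H1048, beside 53.9% of all tested genes. After RUVBL1 knockout in T3M-4 it was 30 of 50, beside 45.9%. These shares of all genes carry no limit on the control mean, and shares under the same limit were not computed. Many of these comparisons share control libraries, so they are not independent of each other. After scaling by the median of ratios, which centres the genes of a comparison, 42.9 to 52.8% of all called genes rose in the 19 comparisons, in place of 14.9 to 91.1% as deposited, while among called members 83.3 to 100% rose in place of 91.7 to 100%. HIST2H2AA3 and HIST2H4A rose in 19 of 19 of these comparisons, in 8 lines, and HIST1H2BD in 17. How many of all genes rose in every 1 of the 19 was not counted. The CB-6644 comparisons of AsPC-1 and T3M-4 among them used 3 DMSO libraries pooled over the vectors, with 1 library per vector. In T3M-4 the summed level of these libraries went from 1757 TPM with the empty vector to 2702 TPM with RUVBL1_A62T, so these calls depend on the pooling. Over all 39 comparisons with sgRosa or DMSO, HIST1H2BD and HIST2H2AA3 rose in 21, HIST1H2BN in 20, HIST2H4A in 19, and HIST1H2BK and HIST3H2A in 17. The members that fell most often were HIST2H2AC in 5, HIST1H2BK in 3, and HIST1H1C and HIST2H2BF in 2 each.

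**Figure D5:**
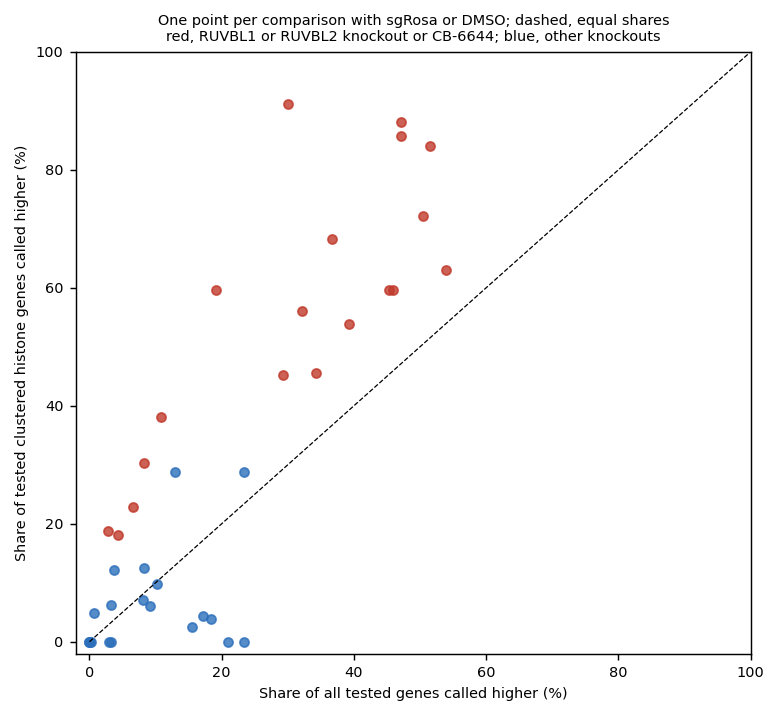
Share of all tested genes called higher (horizontal axis, percent) against the share of tested clustered histone genes called higher (vertical axis, percent), 1 point per comparison with sgRosa or DMSO, in red for RUVBL1 or RUVBL2 knockout or CB-6644 and blue for other knockouts; the dashed line marks equal shares. All 19 red points lie above the line, and 6 of the 20 blue points do. The shares count every tested member, also those that entered a test only through treated libraries, and both rows of each identical pair. The CB-6644 points of AsPC-1 and T3M-4 use DMSO libraries pooled over the vectors.

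Members of all 4 core histone classes were among those that rose after CB-6644 in A375, T84 and H1048 and after RUVBL1 knockout in AsPC-1 experiment 2. Of all tested genes, 51.5, 47.2, 53.9 and 30.0% rose there, in that order. RH30 is not listed by class here. In A375, 10 of 12 tested H2A, 10 of 12 H2B, 10 of 11 H3 and 7 of 8 H4 genes rose after CB-6644, and the 1 tested H1 gene did not pass the test. In T84, 9 of 10 H2A, 13 of 13 H2B, 8 of 9 H3, 5 of 9 H4 and 1 of 1 H1 genes rose, and in AsPC-1 experiment 2 after RUVBL1 knockout 7 of 8 H2A, 12 of 12 H2B, 6 of 6 H3, 5 of 7 H4 and 1 of 1 H1. In H1048 the counts were 9 of 14 H2A with 1 lower, 9 of 11 H2B, 6 of 12 H3 with 1 lower and 5 of 8 H4. The H3 share in H1048 was below that of all tested genes. The class counts include members that entered a test only through treated libraries. Of the members that rose, 27 of 37 in A375 and 25 of 36 in T84 had a control mean of at least 1 TPM. It was 24 of 29 in H1048 and 21 of 31 in AsPC-1 experiment 2. The classes were not counted within these.

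Members with an annotated transcript past the stem-loop, such as HIST1H2BD, HIST2H2BE and HIST2H4A, were counted apart from those without, such as HIST2H2AA3 and HIST2H3A. The counts include members that entered a test only through treated libraries, among them the extended HIST1H2BN in A375. They were not repeated without such members, and the shares of all genes that rose are given above. In A375, 15 of 16 extended members rose (median log2 fold change 2.09) against 22 of 28 others (1.39), and in T84 15 of 16 (1.48) against 21 of 26 (1.01). In H1048 it was 15 of 16 (1.45) against 14 of 30 (0.45), and in RH30 10 of 12 (1.37) against 16 of 24 (0.94). AsPC-1 with the empty vector had 16 of 17 (1.42) against 21 of 25 (1.1), and RUVBL1 knockout in experiment 2 14 of 14 (1.87) against 17 of 20 (1.70). The order was not the same everywhere, since T3M-4 with the empty vector had 11 of 17 (0.69) against 23 of 40 (0.73) and CFPAC-1 after RUVBL1 knockout 5 of 17 (-0.02) against 6 of 31 (0.09). With HIST1H2BK counted as extended, A375 had 16 of 17 (2.04) against 21 of 27 (1.41) and H1048 16 of 17 (1.37) against 13 of 29 (0.35), and CFPAC-1 after RUVBL1 knockout 5 of 18 (0.04) against 6 of 30 (0.06). Extended members held 35.0 to 36.7% of the summed level in the DMSO libraries of A375 and 48.3 to 49.8% in CB-6644, and 20.7 to 22.5% and 35.0 to 36.2% in H1048. With HIST1H2BK counted as extended the A375 ranges overlapped, at 57.9 to 60.6% in DMSO and 57.3 to 59.8% in CB-6644, while in H1048 they were 45.8 to 53.1% and 60.2 to 62.3%. The shift in A375 thus rested on where this 1 gene was counted.

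Genes that mark S phase (43) or G2 and M phase (54) moved beside the members, in directions that differed between comparisons, and their part in the result was not tested. After RUVBL1 or RUVBL2 knockout these genes were mostly lower where they changed. In AsPC-1 experiment 2 after RUVBL1 knockout, 1 of 41 tested S phase genes rose and 30 fell. Of 52 tested G2 and M phase genes, 3 rose and 34 fell. In T3M-4 0 rose and 32 fell, and 0 rose and 48 fell, after RUVBL1 knockout. The balance was weaker after RUVBL1 knockout in AsPC-1 experiment 3, where 6 rose and 10 fell, and 5 rose and 17 fell. After CB-6644 the S phase genes split, with 15 higher and 19 lower in A375, 15 and 15 in T84, 22 and 10 in H1048 and 19 and 19 in RH30. With the empty vector they were 20 and 4 in AsPC-1 and 16 and 5 in T3M-4. The G2 and M phase genes were 9 higher and 38 lower in A375, 5 and 37 in H1048, 21 and 16 in T84 and 17 and 19 in RH30. With the empty vector they were 13 and 17 in AsPC-1 and 14 and 8 in T3M-4. The shares of all genes called in each of these comparisons are given above. KLF5 knockout in BxPC-3 experiment 2 had 35 S phase genes higher and 0 lower, and Rpa3 knockout there 0 higher and 35 lower, beside 0 and 2 members called. Of 9 genes listed for cell cycle exit and arrest, 6 of 8 tested rose and 1 fell in A375, 7 of 9 rose and 1 fell in T84 and 6 of 8 rose and 1 fell in RH30, but 3 rose and 6 fell in H1048, with a median log2 fold change of 0.89, 0.43, 0.32 and -0.24. CDKN1A, the cyclin-dependent kinase inhibitor p21 of that list, rose by 2.04 in A375, 1.59 in H1048, 0.83 in T84 and 0.78 in RH30, while in H1048 the members that fell included CDKN1B (-0.25), CDKN1C (-0.68) and CCNG2 (-0.28).

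The genes that make and process histone mRNA, 20 in the list used, changed both ways. They were 7 higher and 8 lower in A375, 6 and 7 in T84, 10 and 5 in H1048 and 9 and 7 in RH30 after CB-6644, and 11 higher and 0 lower in AsPC-1 with the empty vector, where 47.2% of all genes rose. After RUVBL1 knockout they were 12 and 0 in AsPC-1 experiment 3, where 36.6% of all genes rose, but 7 and 5 in experiment 2, 4 and 2 in T3M-4, 2 and 1 in BxPC-3 and 2 and 10 in CFPAC-1. NPAT, the coactivator of histone gene transcription, rose by 0.71 in T84, 0.57 in A375, 0.40 in H1048 and 0.60 in RH30. CASP8AP2, a component of histone locus bodies, rose by 0.59, 0.45, 0.46 and 0.49. SLBP, which binds the stem-loop, fell by 0.34 in A375 and rose by 0.13 in H1048, and did not pass the test in T84 (-0.06) or RH30 (0.00).

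The replication-independent histone genes, which lie outside the clusters and have polyadenylated mRNA, did not rise together. Of those tested, 5 rose and 6 fell in A375, 3 and 5 in T84, 3 and 7 in H1048 and 4 and 5 in RH30. H3F3B, which encodes the replacement histone H3.3, fell by 0.19 in T84, 0.84 in A375, 0.16 in H1048 and 0.21 in RH30 in the libraries in which HIST2H3A rose.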

How the data were processed

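Poly-A selected RNA of 183 libraries had been sequenced as 76-base single-end reads. The authors used kallisto with an hg38 transcriptome, dropped transcripts of low abundance and made gene values with tximport. The deposited values are TPM in 8 tables, and every library sums to 1e+06 TPM, so read depth is unknown and no counts can be used. The study's own test used read counts, which the tables do not hold, and here log2(TPM + 1) was fitted with limma 3.58.1 (R 4.3.3) with a trend, 1 fit per line and experiment, for genes whose mean over the fitted libraries reached 1 TPM, with adjustment over all of them and a threshold of 0.05. A fold change on this scale understates the change of low genes. Groups came from the labels, whose batch entry is the same for every sample, so no batch could be split. For 47 comparisons, 39 of them with sgRosa or DMSO, the alternatives were a pseudocount of 0.1, no filter, scaling by the median of ratios, the replicate number as a block, the DMSO library of the same vector alone, and leaving out each library. The fit was tested on simulated data.

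The members and the gene lists were chosen with earlier results of these data known. Named genes are the 10 most abundant members in controls, up to 3 of the largest rises and falls per comparison among called genes whose libraries do not overlap, the 5 most often called each way, and 7 fixed genes (HIST1H1C, HIST1H2AC, HIST1H2BD, HIST1H2BK, HIST2H2BE, HIST2H2AC and HIST4H4). S phase and G2 and M phase genes are the lists of Seurat 5.3.0. Stem-loops and promoters were read from GRCh38 with GENCODE 44 and RefSeq annotation; 63 of 68 members had a promoter in the RefSeq table, and the missing are HIST1H2AH, HIST1H3I, HIST1H3J, HIST1H4A and HIST1H4C. Python 3.11.15 with pandas 2.3.3 was used for tables.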

Additional observations from a re-analysis of the deposited data

Results flagged for a closer look

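The summed level and 8 of the most abundant members were searched for a library far from the others in the 30 groups of 4 to 10 libraries, and 17 of 270 searches, in 13 groups, found one, where chance gives about 1 in 20. The summed level was 1891 TPM in CFPAC-1 sgRUVBL1 replicate 1 (others 1938 to 1942), 1539 TPM in SUIT-2 sgRosa replicate 1 (344 to 483) and 3600.4 TPM in T3M-4 experiment 1 sgKLF5 replicate 1 (3147 to 3207). HIST1H2BK was at 115 TPM in AsPC-1 experiment 3 sgRosa replicate 4 (96.5 to 98.3) and 596 TPM in T3M-4 experiment 2 sgKLF5 replicate 2 (659 to 667). HIST1H1C was at 19.9 TPM in AsPC-1 sgCHD4 replicate 3 (25.3 to 25.6), 71.4 TPM in BxPC-3 sgRUVBL1 replicate 4 (79.3 to 79.8), 364 TPM in CFPAC-1 sgRUVBL1 replicate 1 (295 to 301) and 103 TPM in SUIT-2 sgRosa replicate 1 (36.6 to 43.6). HIST1H2BD was at 60.2 TPM in BxPC-3 experiment 1 sgKLF5 replicate 2 (72.4 to 73.7) and 16.1 TPM in T84 DMSO replicate 1 (18.6 to 18.9). HIST1H2AC was at 64.6 TPM in T3M-4 experiment 1 sgKLF5 replicate 2 (214 to 218), HIST2H2AA3 at 39.7 TPM in SUIT-2 sgRosa replicate 1 (13.9 to 17.0), and HIST2H4A at 2.13 TPM in AsPC-1 sgSERPINB5 replicate 2 (4.19 to 4.55) and 7.98 TPM in H1048 DMSO replicate 4 (4.38 to 4.68). HIST1H2BC was at 18.3 TPM in BxPC-3 experiment 2 sgKLF5 replicate 3 (12.2 to 13.2) and HIST3H2A at 20.5 TPM in T84 CB-6644 replicate 3 (16.1 to 16.8).

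In some comparisons every treated library lay below every control library while every treated library of another line or experiment under the same contrast lay above its own controls. These differences were not tested, and how many of all genes lay apart in this way was not counted. Each CDK1 and Rpa3 group held 2 libraries. In experiment 1 of T3M-4 and of BxPC-3 the sgRosa group also held only 2, so such a separation is weak there. As the ratio of the treated to the control mean, HIST1H2BK was at 0.851 after RUVBL1 knockout in T3M-4, and above its control in AsPC-1 and BxPC-3. After CDK1 knockout HIST1H1C was at 0.799 in BxPC-3 (above control in T3M-4), and HIST2H2AA3 at 0.733 in AsPC-1 experiment 3 and 0.764 in BxPC-3 (above control in T3M-4 and CFPAC-1). After Rpa3 knockout the summed level was at 0.845 in T3M-4 experiment 1 and 0.947 in BxPC-3 experiment 1, and above control in AsPC-1 and CFPAC-1. HIST1H2BK after Rpa3 knockout was at 0.767 in T3M-4 experiment 1, 0.770 in T3M-4 experiment 2 and 0.895 in BxPC-3 experiment 1, and above control in AsPC-1. HIST1H2BD was at 0.824 in BxPC-3 experiment 1 after Rpa3 knockout, and above control in AsPC-1 and CFPAC-1. In T3M-4 experiment 1 HIST1H2AC was at 0.780 after Rpa3 knockout (above control in BxPC-3 experiment 2 and CFPAC-1) and HIST1H2BC at 0.808 (above control in AsPC-1 and CFPAC-1). HIST1H1C was at 0.744 in T3M-4 with the empty vector in CB-6644, and above control in AsPC-1 with the empty vector and in T84.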

How the results depend on the processing

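Read depth is unknown, members near 1 TPM are least certain, groups of 2 libraries carry the counts of CDK1, Rpa3 and CFPAC-1 RUVBL2 knockouts, and polyadenylated RNA shows only some of the histone mRNA. Counts below are members past the threshold, with the main count in brackets.

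Of 188 counts under alternatives other than leaving out 1 library, 157 were within 1.5 times the main count, and of 128 named values, none changed direction, with 1127 values on the same side of the threshold and 218 no longer past it. With a pseudocount of 0.1 the count was 2 for KLF5 in AsPC-1 experiment 3 [1], 1 for KLF5 in BxPC-3 experiment 1 [3] and 1 for Rpa3 in BxPC-3 experiment 2 [2]. With no filter it was 3 (1 higher and 2 lower, so the balance reversed) for KLF5 in AsPC-1 experiment 1 [1], 0 in experiment 3 [1], 2 for CDK1 in AsPC-1 [6], 6 for CHD4 [3], 1 and 2 for KLF5 in BxPC-3 experiments 1 [3] and 2 [0], 1 and 4 for KLF5 [3] and Rpa3 [8] in CFPAC-1, and 10 for AsPC-1 RUVBL1_A62T in CB-6644 [16]. Scaled by the median of ratios it was 0 for KLF5 in AsPC-1 experiment 1 [1], 2 for KLF5 in T3M-4 experiment 1 [0], 5 for Rpa3 in CFPAC-1 [8], 18 and 12 for T3M-4 RUVBL1_A62T [34] and RUVBL2_dF109 [26] in CB-6644, 8 for Rpa3 against CDK1 in AsPC-1 [5], and 33 and 23 for the T3M-4 empty vector against RUVBL1_A62T [19] and RUVBL2_dF109 [14]. This scaling moved the median of all genes by over 0.1 in 22 of 47 comparisons (-0.26 to 0.31 on the log2 scale) and their split of higher against lower calls by over 10 percentage points in 27. Against the DMSO library of the same vector alone the count was 0 for RUVBL1_A62T in AsPC-1 [16] and in T3M-4 [34]. With the same kind of control it was 32 and 19 for the empty vector [37] and RUVBL2_dF109 [20] in AsPC-1 and 37 and 33 in T3M-4 [35 and 26]. The cause was not tested.

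Replicate numbers did not pair the samples. Over 41 comparisons the correlation of same-numbered deviations was -0.46 to 0.49, and in none of the 23 with 3 or more pairs was every pair over 0.1. With the replicate block the count was 8 and 0 for KLF5 in AsPC-1 experiments 1 [1] and 3 [1], 3 for CDK1 in AsPC-1 [6], 13 for KLF5 in T3M-4 experiment 1 [0], 3 (1 higher and 2 lower, reversed) for Rpa3 in BxPC-3 experiment 2 [2], 1 and 4 for KLF5 [3] and Rpa3 [8] in CFPAC-1, and 32 and 27 for the T3M-4 empty vector against RUVBL1_A62T [19] and RUVBL2_dF109 [14]. The block moved no other count by over 1.5 times.

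With 1 library left out the counts ranged as follows. In AsPC-1 they were 0 to 3 and 0 to 1 for KLF5 in experiments 1 and 3, 25 to 30 for RUVBL1 and 21 to 25 for RUVBL2 in experiment 3, 26 to 31 for RUVBL1 in experiment 2, 2 to 5 for CDK1, 0 to 3 for Rpa3, 2 to 4 for Rpa3 against CDK1 and 3 to 8 for CHD4. In T3M-4 they were 0 to 12 and 13 to 18 for KLF5 in experiments 1 and 2, 24 to 31 for RUVBL1, 24 to 30 for RUVBL2, 8 to 16 for CDK1, 2 to 7 for Rpa3 and 2 to 7 for Rpa3 against CDK1. In BxPC-3 they were 0 to 5 and 0 to 1 for KLF5, 7 to 11 for RUVBL1, 6 to 8 for RUVBL2, 1 to 5 for CDK1, 0 to 2 for Rpa3 and 2 to 3 for Rpa3 against CDK1. In CFPAC-1 they were 0 to 3 for KLF5, 10 to 13 for RUVBL1, 1 to 10 for RUVBL2 and 1 to 9 for Rpa3, and in SUIT-2 0 to 1 for KLF5. For CB-6644 with the empty vector, RUVBL1_A62T and RUVBL2_dF109 they were 35 to 37, 6 to 20 and 16 to 22 in AsPC-1 and 25 to 39, 26 to 44 and 11 to 36 in T3M-4, and for the empty vector against the others 23 to 29 and 23 to 30 in AsPC-1 and 15 to 21 and 3 to 11 in T3M-4. They were 35 to 39 in T84, 34 to 37 in A375, 25 to 32 in H1048 and 26 to 29 in RH30. The balance reversed in T3M-4 Rpa3 experiment 2 without sgRosa replicate 3, with 7 called, 5 of them higher, and in BxPC-3 Rpa3 against CDK1 without Rpa3 replicate 1, with 3 called, 2 of them higher.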
